A study of Rousettus aegyptiacus with 32 samples.

Results

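The strength of open chromatin was compared between 2 patches of the Egyptian fruit bat's primary motor cortex, one for the face and mouth and one for the wing, at 119136 regions of the genome that carried an ATAC-seq peak in all 4 libraries from these areas. The 4 libraries were the orofacial area (ofM1) and the wing area (wM1) of bats 1 and 3, both adult males, with 1 library per area and bat. Peaks of the 4 libraries that overlapped by at least 1 base were merged into 231552 regions, and those with a peak in every library were kept, which was 51.5% of them. Across all 20 ATAC-seq libraries of the series, from 10 tissues of the same 2 bats, peaks merged into 856986 regions. The study asked about convergent evolution of regulatory elements with vocal learning, and the ATAC-seq nuclei came from frozen bulk tissue.

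ATAC-seq uses a transposase that inserts into accessible DNA, so a peak marks a stretch such as a promoter or enhancer that is free of tightly packed nucleosomes. Primary motor cortex is laid out as a body map, in which neighbouring patches drive the muscles of the face and mouth or those of the forelimb, which in bats is the wing. The patches share their layers and cell classes, and differ in the brainstem and spinal targets of their output neurons. In bulk tissue, a peak that is stronger in fewer cells and one that is weaker in more cells cannot be told apart.

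Of the regions outside the set, 24542 had a peak in 3 of the 4 libraries. The library without a peak was ofM1 of bat 1 in 7823 of them, ofM1 of bat 3 in 7056, wM1 of bat 3 in 6685 and wM1 of bat 1 in 2978. All 4 lists reached 300000 rows, and they ended at unlike strengths. Their lowest -log10 p was 3.3, 8.22, 5.01 and 6.43 in the same order. A peak missing from a list may thus be weak and not absent. The shared regions held most of what each list covered, from 82.3% of the bases under peaks in wM1 of bat 1 to 86.6% in ofM1 of bat 3. They had a median length of 907 bases and together covered 117.66 Mb. In 99636 of them (83.6%) each library had a single peak. The coordinates are those of the deposited lists, whose genome build the sources used here do not give. Regions were not matched to genes, so the tissue labels were not checked against marker genes. Comparison with the other libraries cannot tell whether the ofM1 and wM1 labels of 1 bat were exchanged.

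The lists differed in how strong their peaks were. At the shared regions the median -log10 p of a peak was 24.1 in ofM1 of bat 1, 42.4 in ofM1 of bat 3, 56.8 in wM1 of bat 1 and 23.9 in wM1 of bat 3. Both areas thus had 1 library with high and 1 with low values, in opposite bats. The median enrichment over background, the peak caller's own value, was 4.56-, 5.06-, 5.49- and 5.08-fold in the same order. Read depth does not go with peak lists and is unknown here. For this reason each region was given its rank within a library, as a percentile of the 119136 shared regions from 0 (weakest) to 100 (strongest), and differences are in percentile points.

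The 2 strongest regions were the same in both areas. First in all 4 libraries stood NW_023416295.1:124334503-124335634, with enrichments of 27.7-fold in ofM1 of bat 1, 23.0-fold in ofM1 of bat 3, 23.1-fold in wM1 of bat 1 and 27.3-fold in wM1 of bat 3. Its peak was 1048 to 1128 bases wide in the 4 libraries, and the 16 libraries of other tissues also had a peak there. Second in all 4 stood NW_023416312.1:33375559-33377252, enriched 13.6- to 15.5-fold and likewise present in all 16 others. Of the 1000 strongest regions of a library, ofM1 shared 598 between the bats and wM1 635. The 2 areas of bat 1 shared 794 and those of bat 3 shared more than any pair of libraries from different bats. Libraries that differed in both area and bat shared 600 and 681, so the overlap within ofM1 was below both and that within wM1 lay between them.

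Strength rank did not separate the orofacial from the wing area beyond the difference between libraries. The 4 libraries can be divided into 2 pairs in 3 ways: by area, by bat, and crossed (ofM1 of bat 1 with wM1 of bat 3, against ofM1 of bat 3 with wM1 of bat 1). The difference between ofM1 and wM1 had an SD over regions of 8.3 points, that between the bats 13.1 points and the crossed difference 8.77 points. The area difference was within 5 points at 53.9% of regions, the bat difference at 39.2% and the crossed difference at 51.1%. A difference of 20 points or more was found at 2.85% of regions by area, 12.4% by bat and 3.56% by the crossed division. Area thus held 21.7% of the variance of rank within regions, bat 54.1% and the crossed division 24.2%.

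With all 4 libraries, the same order was found among regions whose libraries did not overlap. A gap was counted where the weaker library of 1 side ranked at least 10 points above the stronger library of the other. By area, 3336 regions (2.8%) had such a gap, 1711 of them (1.44%) higher in ofM1 and 1625 (1.36%) higher in wM1. By bat there were 16349 (13.7%), with 8692 (7.3%) higher in bat 1 and 7657 (6.43%) in bat 3. The crossed division gave 4357 (3.66%), with 2129 (1.79%) and 2228 (1.87%) on its sides. The number by area was thus below the crossed number with all 4 libraries. Without wM1 of bat 1 this order turned, with gaps at 17.3% of regions by area and 15.7% crossed, and the SD of the area difference was then 1.031 times the crossed SD. The crossed division also sets the 2 libraries with low -log10 p, ofM1 of bat 1 and wM1 of bat 3, against the 2 with high values, so it is not a neutral baseline. The part of those levels in the crossed differences was not tested.

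**Figure D1:**
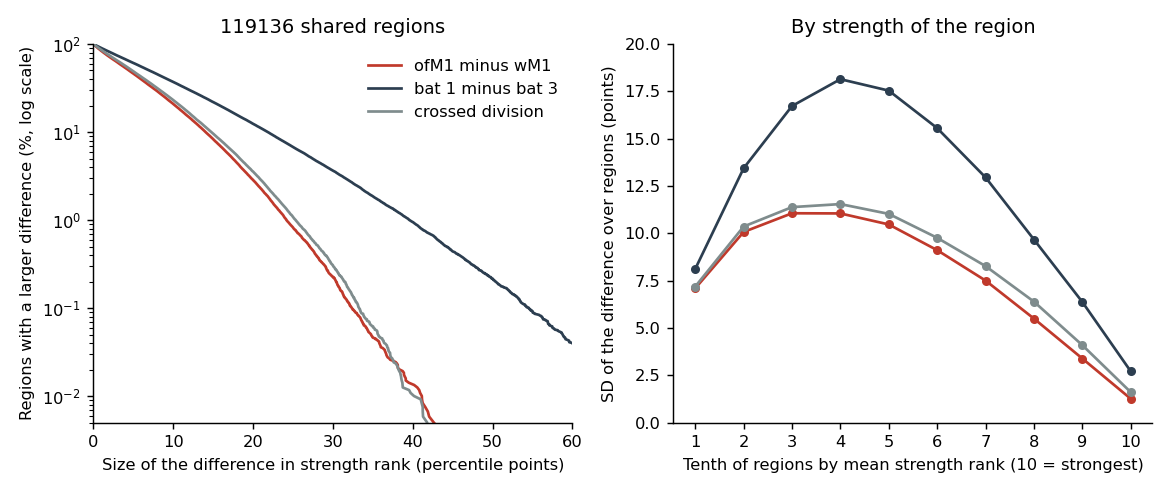
Left, the percentage of the 119136 shared regions (log scale) whose difference in strength rank is larger than the value on the x axis (percentile points), for ofM1 minus wM1, bat 1 minus bat 3 and the crossed division. Right, the SD of the same differences in 10 bins of the regions by mean rank. The area line lies below the crossed line in every bin of the right panel, and the bat line lies above both.

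In a test of every region with limma, 0 of 119136 regions (0%) differed between ofM1 and wM1 at a Benjamini-Hochberg adjusted p under 0.05. At an unadjusted p under 0.05 there were 1016 (0.853%), 499 of them higher in ofM1. By bat the test called 1001 regions (0.84%), 694 higher in bat 1 and 307 in bat 3, and 22965 (19.3%) at an unadjusted p. The crossed division gave 0 and 1999 (1.68%). This fit had no block, so the difference between the bats was part of the error of the area and crossed tests. The error of the test by bat held only the smaller area and crossed differences. The counts are thus not on an equal footing. With the bat as a replicate block, the area count was still 0, with 4402 regions (3.69%) at an unadjusted p under 0.05. The crossed count was also 0, with 9503 (7.98%). With the area as the block the count by bat was 6256 (5.25%), with 22964 (19.3%) at an unadjusted p. The count by bat was 0 with fold enrichment ranked or without limma's trend, and 86 without wM1 of bat 1. Bat 1 and bat 3 also differ in whatever was done separately for each animal, and these cannot be told apart. On simulated ranks, limma recovered only large shifts shared by many regions. It called none where few regions shifted, and none at shifts with a median of 24.4 to 25.6 points, however many regions had them. In the data, 2.85% of regions differed by 20 points or more by area. A count of 0 thus does not show that no region differs. The simulated noise had no part shared by the libraries of a bat, and only the fit without a block was run on it. Unchanged simulated regions had gaps at 7.08 to 7.72%, against 2.8% of regions by area in the data. The simulation is thus only a rough guide to these libraries.

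The difference between the areas did not carry over from 1 bat to the other. Across the 119136 regions, the ofM1 minus wM1 difference of bat 1 correlated with that of bat 3 at Pearson's r = -0.0544, a description over regions that share 4 libraries. The bat 1 minus bat 3 difference in ofM1 correlated with that in wM1 at r = 0.381. Both correlations restate the SDs above and are not separate results. The first is negative because the area SD was below the crossed SD, and the second positive because the bat SD was above it. The areas differed in the same direction in both bats at 46.6% of regions, and the bats in the same direction in both areas at 62.1%. The level of -log10 p was reversed between the bats, with medians of 24.1 in ofM1 and 56.8 in wM1 of bat 1. In bat 3 they were 42.4 in ofM1 and 23.9 in wM1. The part of these levels in the opposite directions was not tested.

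Regions chosen in 1 bat were then read in the other, whose libraries had no part in the choice. In bat 1, 6166 regions ranked at least 20 points higher in ofM1, by a median of 25 points. In bat 3 the same regions had a median difference of -1.46 points, and 44.9% ranked higher in ofM1. Another 5958 regions ranked at least 20 points higher in wM1 in bat 1, and 46.6% of these also did so to some degree in bat 3. Chosen in bat 3 and read in bat 1, the shares were 44.6% of 6521 regions and 49.3% of 6686. None of these 4 choices gave a share above 49.3%, and the reversed -log10 p levels apply to them too. Of 11042 regions at least 20 points higher in bat 1 than in bat 3 in ofM1, 76.8% were higher in bat 1 in wM1 too, by a median of 13.3 points, and the other 3 choices of this kind gave 71.0 to 75.0%.

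**Figure D2:**
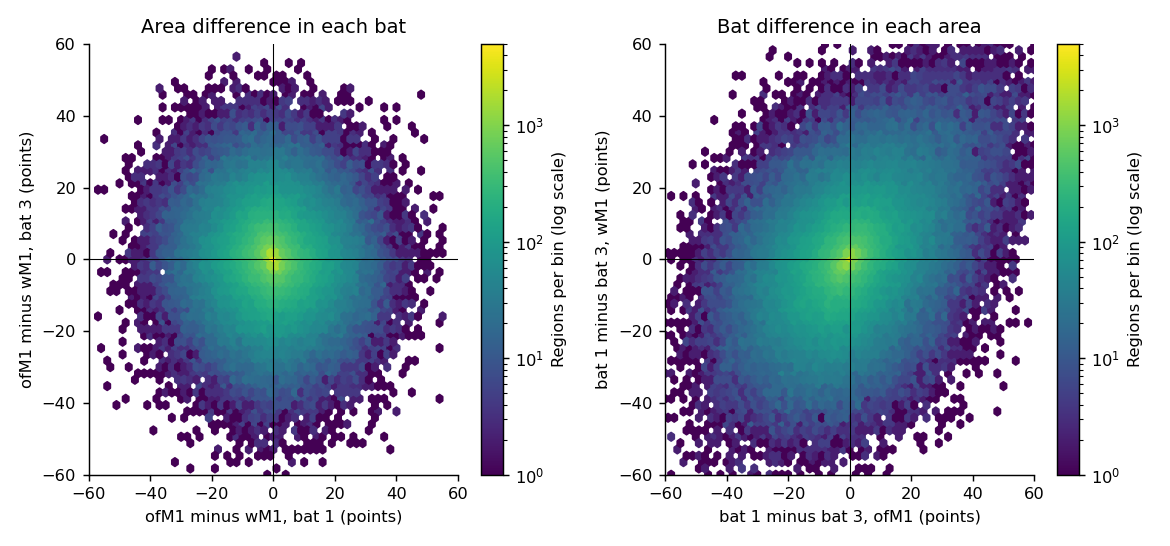
Left, the difference in strength rank between ofM1 and wM1 in bat 1 (x axis) and bat 3 (y axis), in percentile points. Right, the difference between bat 1 and bat 3 in ofM1 (x axis) and wM1 (y axis). Colour is the number of regions per bin (log scale), and 6 and 260 regions beyond 60 points are not drawn. The left cloud has little slope (r = -0.0544) and the right one leans upward (r = 0.381).

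Libraries were closest to the other motor area of the same bat. The Spearman correlation of strength was 0.916 between ofM1 and wM1 of bat 1 and 0.909 in bat 3. It was 0.856 between the 2 ofM1 libraries, 0.845 between the 2 wM1 libraries, and 0.850 and 0.862 for the 2 crossed pairs. Among the 70483 shared regions that also had a peak in the other 8 cortical and striatal libraries, the same-bat motor area was again the closest of these libraries for each of the 4. The same area of the other bat stood at place 2 for ofM1 of bat 1, 4 for ofM1 of bat 3, 6 for wM1 of bat 1 and 5 for wM1 of bat 3. For ofM1 of bat 3 and wM1 of bat 3, secondary auditory cortex (2A) of bat 3 was next after it, at 0.919 and 0.913.

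How far the libraries differed went with the strength of the region. The shared regions were cut by their mean rank into 10 bins of equal size, from 1 (weakest) to 10 (strongest). In bin 10, with a median mean rank of 94.7, the area difference had an SD of 1.27 points, the bat difference 2.72 and the crossed difference 1.62, and 0% of regions had a gap by area. In bin 3, the SDs were 11.1, 16.7 and 11.4 points, and gaps by area reached their highest share, 6.22%, against 7.15% for the crossed division. In bin 1, the weakest, the SDs were 7.1, 8.13 and 7.19 points, with gaps by area at 2.25%. In each of the 10 bins the area SD was below the crossed SD. Gaps in the 2 directions were also even: bin 3 held 388 towards ofM1 and 353 towards wM1, and bin 7 held 88 and 85. The correlation of the area difference between the bats was negative in every bin, from -0.013 in bin 1 to -0.25 in bin 10. It restates that the area SD was below the crossed SD.

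Peak width was also compared, and its ranks had more spread than those of strength. The median width of the strongest peak in a shared region was 510 bases in ofM1 of bat 1, 821 in ofM1 of bat 3, 664 in wM1 of bat 1 and 671 in wM1 of bat 3. The 2 orofacial libraries thus had the narrowest and the widest peaks, with both wing libraries between them. Several peaks within 1 region were found at 12.3% of regions in ofM1 of bat 1, against 1.3% in ofM1 of bat 3. Width and strength went together within each library, with a Spearman correlation across regions of 0.504 to 0.614.

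Ranked within libraries, width differed between the areas with an SD of 12.4 points, between the bats with 15.9 and in the crossed division with 13.4. Gaps of at least 10 points were found at 7114 regions by area (5.97%), 3631 (3.05%) wider in ofM1 and 3483 (2.92%) in wM1. By bat they were found at 14962 regions (12.6%), 7322 (6.15%) of them wider in bat 1 and 7640 (6.41%) in bat 3. In the crossed division they were found at 8013 (6.73%), with 3540 (2.97%) and 4473 (3.75%) on its sides. The area share was above the crossed one without ofM1 of bat 1 (23.3% against 19.5%) and without ofM1 of bat 3 (30.2% against 18.5%). The limma test of width rank, again without a block, called 0 regions (0%) by area at an adjusted p under 0.05. At an unadjusted p there were 2396 (2.01%). With the bat as a replicate block the test called 161 (0.135%), 59 of them wider in ofM1 and 102 in wM1. The counts by bat were 0, with 10889 (9.14%) at an unadjusted p, and 1651 (1.39%) with the area as the block. For the crossed division they were 0, with 4075 (3.42%) at an unadjusted p, and 0 with the block. The width difference of bat 1 correlated with that of bat 3 at r = -0.0809 across regions, negative because the area SD was below the crossed SD.

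Where strength had a gap by area, width went in part with it. At the 1711 regions that ranked higher in ofM1 for strength, the median width rank was also higher there, by 4.47 points, and 68.1% were wider in ofM1 by rank. At the 1625 regions stronger in wM1, the width rank was lower in ofM1 by a median difference of -4.07 points, and 69.2% were wider in wM1. Over all shared regions the 2 measures pointed the same way at 55.3%. Strength and width come from the same peak, so these are not separate measurements.

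The 5 regions with the largest gap in each direction show how far single regions went. They are called of-1 to of-5 where ofM1 ranked higher and w-1 to w-5 where wM1 did. Region of-1 was NW_023416286.1:95113628-95114205, of 578 bases. It ranked at 51.4 in ofM1 of bat 1 and 51.6 in ofM1 of bat 3, and at 4.13 in wM1 of bat 1 and 5.66 in wM1 of bat 3. Enrichment was 5.4- and 6.31-fold in the orofacial libraries and 2.78- and 3.18-fold in the wing libraries. The 2 groups did not overlap on either scale, with a rank difference of 46.6 ± 11.3 points (SE, limma adjusted p = 1).

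This region was not confined to motor cortex. It had a peak in all 8 libraries of 2A, premotor cortex (PreM), caudate and putamen, and none listed in cerebellum, liver, muscle or testis. Among the shared regions with a peak in the same library, it ranked at 6.39 in 2A of bat 1, 6.76 in PreM of bat 1, 38.1 in 2A of bat 3 and 44.5 in PreM of bat 3. The other cortical areas were thus low in bat 1, like wM1, and nearer to ofM1 in bat 3.

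Region of-2, NW_023416310.1:14430360-14430887, ranked at 42.3 and 46.2 in ofM1 of bats 1 and 3 and at 3.02 and 3.88 in wM1. Besides the motor libraries it had a peak in 3 others, both of 2A and PreM of bat 3. Region of-3, NW_023416287.1:7527641-7528761, ranked at 52.8 and 51.6 in ofM1 and at 7.34 and 13.9 in wM1, although its peak in wM1 of bat 3, of 1106 bases, was as wide as those of ofM1, of 1108 and 1098 bases. Regions of-4 (NW_023416293.1:15388453-15388966) and of-5 (NW_023416287.1:1565530-1566418) had gaps of 33.4 and 33.3 points. By rank of fold enrichment, the difference at of-4 was 12.1 points in place of 33.5.

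In the other direction, w-1 was NW_023416306.1:87978141-87978765, of 625 bases. It ranked at 57.8 in wM1 of bat 1 and 56.0 in wM1 of bat 3, and at 9.62 in ofM1 of bat 1 and 16.5 in ofM1 of bat 3. Enrichment was 6.95- and 6.11-fold in the wing libraries and 2.79- and 3.43-fold in the orofacial ones, with no overlap between the areas (rank difference, ofM1 minus wM1, -43.9 ± 12.6 points, SE, limma adjusted p = 1). In 2A and PreM it ranked at 33.3 to 44.7, between the 2 motor areas, and it had a peak in 12 of the 16 other libraries.

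Region w-2 was NW_023416308.1:60350039-60350518, at 46.2 and 55.4 in wM1 of bats 1 and 3 and at 7.49 and 7.38 in ofM1. Region w-3 was NW_023416286.1:26726472-26726988, at 61.7 and 46.8 in wM1 and 11.4 and 6.92 in ofM1. It ranked at 68.3 in 2A of bat 3 and at 2.92 in PreM of the same bat, so areas of 1 bat differed there as much as the motor areas did. Regions w-4 (NW_023416306.1:61856992-61857652) and w-5 (NW_023416286.1:85271290-85271875) had gaps of 34.4 and 34.2 points, and peaks in 14 and 12 of the other libraries. In limma without a block, the adjusted p of all 10 regions was 1, and with the bat as the block it was 0.585 to 1.

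**Figure D3:**
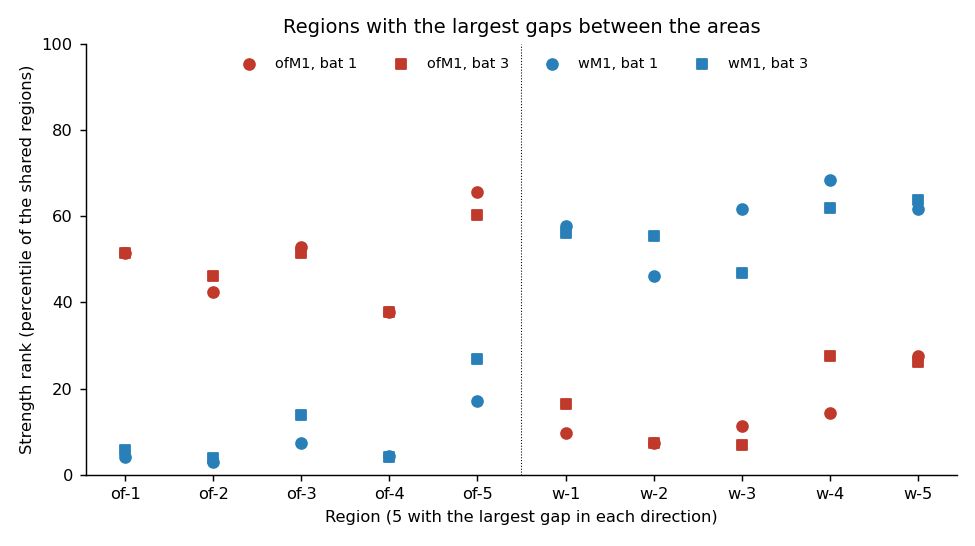
Strength rank (y axis, percentile of the 119136 shared regions) in each of the 4 libraries for the 5 regions with the largest gap in each direction (x axis), with ofM1 in red, wM1 in blue, circles for bat 1 and squares for bat 3. By choice, the libraries of the 2 areas do not overlap, and the gaps run from 33.3 to 45.8 points.

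Gaps of this size were not limited to the division by area. The largest gap was 45.8 points for ofM1 and 39.6 for wM1, and in the crossed division it was 38.2 and 36.5 points on the 2 sides. Between the bats the largest gaps were 71.2 points for bat 1 and 78.4 for bat 3.

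Regions with a gap were weaker than the shared regions as a whole, in every division. Those with a gap had a median mean rank of 30.0 in the ofM1 direction and 29.9 in the wM1 direction, against 48.4 over all shared regions. The crossed sets had medians of 32.3 and 33.0 and those by bat 39.8 and 39.6. A peak in 2A of bat 1 was present at 94.6% of the regions higher in ofM1 and 98.6% of those higher in wM1, beside 97.1% of all shared regions. In cerebellum the 2 directions were far apart: 25.1% of the regions higher in ofM1 had a peak in bat 1 and 25.7% in bat 3, against 52.2% and 51.5% of those higher in wM1. All shared regions stood at 53.8% and 55.3%. In putamen, too, the regions higher in ofM1 had fewer peaks, at 52.0% and 52.5% in bats 1 and 3, against 67.7% and 64.2%. Both directions lay below all shared regions, at 71.0% and 70.1%. In testis they had 20.9% and 21.2% against 34.7% and 31.2%, and all shared regions had 41.6% and 40.7%. These libraries had no part in choosing the regions, and the comparison was made after their values were seen.

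The crossed division also gave a contrast in cerebellum. Of the regions higher in ofM1 of bat 1 and wM1 of bat 3, 29.7% had a cerebellar peak in bat 1 and 25.7% in bat 3, against 46.1% and 50.7% of those higher in ofM1 of bat 3 and wM1 of bat 1. In putamen the first of these sets stood at 59.1% and 61.7% and the second at 57.8% and 53.3%, and in testis at 29.1% and 27.7% and at 26.8% and 26.5%. In cerebellum the regions higher in bat 1 and those higher in bat 3 stood at 46.5% and 46.5% in bat 1 and 46.0% and 47.8% in bat 3. Both contrasts were also found at like strength. In bin 3 of mean rank, 22.7% and 22.4% of the 388 regions higher in ofM1 had a cerebellar peak in bats 1 and 3. Of the 353 higher in wM1, 47.3% and 44.2% had one, and of all regions of that bin 35.7% and 35.0%. The crossed sets of that bin stood at 24.6% and 20.6% of the 399 regions higher in ofM1 of bat 1 and wM1 of bat 3. Of the 453 higher in ofM1 of bat 3 and wM1 of bat 1, 45.3% and 49.9% had a cerebellar peak. The sets of the division that mixes the areas were thus apart in this tissue as well, and whether the contrast by area was larger was not tested.

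**Figure D4:**
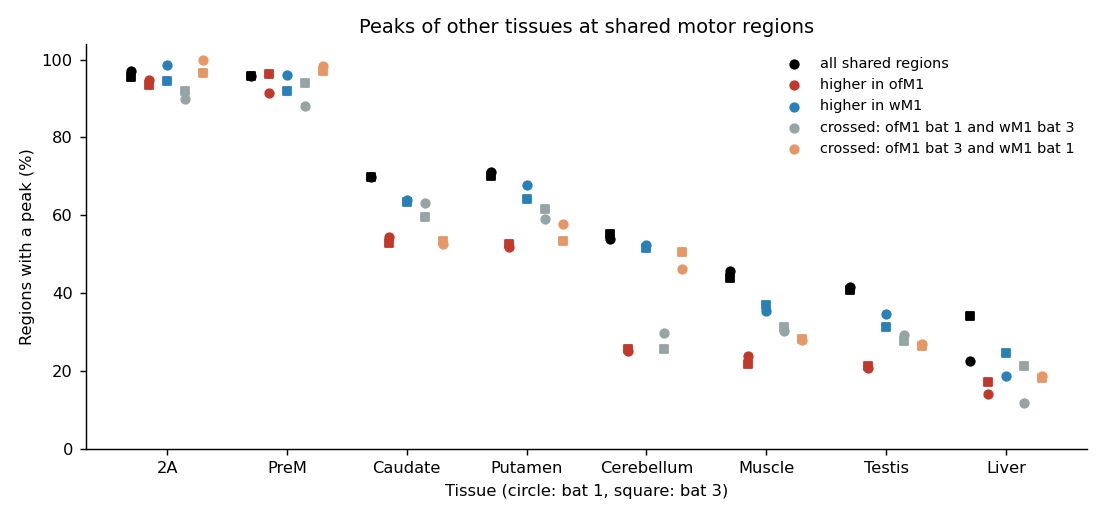
Percentage of regions with a peak (y axis) in libraries of 8 other tissues (x axis, circles for bat 1 and squares for bat 3), for all shared regions, those with a gap of at least 10 points by area and those with such a gap in the crossed division. In cerebellum the regions higher in ofM1 stand at 25.1% and 25.7% and those higher in wM1 at 52.2% and 51.5%, and the crossed sets are also apart.

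Regions found in few other libraries were graded slightly more often towards ofM1. Among the 3284 regions with a peak in 0 to 3 of the 16 other libraries, 105 had a gap with ofM1 higher (3.2%) and 39 with wM1 higher (1.19%). Among the 10125 with a peak in all 16, the counts were 9 (0.0889%) and 32 (0.316%). The median difference at the first group was 3.6 points in bat 1 and -1.11 points in bat 3, so the 2 bats went opposite ways there. At the second group it was -0.3 and 0.0252 points. At the 30084 regions with 4 to 7 other peaks, both medians were slightly towards ofM1, at 0.308 and 0.944 points. Gaps there were at 2.38% with ofM1 higher and 1.57% with wM1 higher. At the 35129 regions with 12 to 15, both were slightly towards wM1, at -0.0923 and -0.415 points. Gaps there were at 0.487% and 1.14%. With 8 to 11, the medians had opposite signs, at -0.0852 and 0.357 points, and gaps were at 1.75% and 1.68%. The -log10 p levels of the areas were also reversed between the bats, and their part here was not tested.

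Over whole scaffolds the area difference was small and mostly of opposite sign in the 2 bats. On the 18 scaffolds with at least 500 shared regions, which held 118765 of them, the median area difference ran from -1.07 to 0.938 points, and that of the crossed division from -1.71 to 3.09. The lowest median by area, -1.07 points, was on NW_023416312.1 (2531 regions), where 21 regions had a gap with ofM1 higher and 62 with wM1 higher. There the median was -2.78 points in bat 1 and 0.506 in bat 3. The highest was on NW_023416289.1 (4337 regions), at 3.81 points in bat 1 and -1.69 in bat 3. On only 1 of the 18 scaffolds did the 2 bats have the same sign. The part of the reversed -log10 p levels in this was not tested.

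Pairs of tissues that share no library with the motor pair were treated alike, for scale. Between 2A and PreM, over 119457 regions with a peak in all 4 libraries, the SD was 10.8 points by area, 15.3 by bat and 9.36 crossed, with gaps by area at 5.55% of regions and crossed at 3.06%. Between caudate and putamen, the 2 parts of the striatum (127314 regions), the SD was 13.8 points by area, 9.2 by bat and 7.94 crossed, with gaps at 15.4%, 4.32% and 2.25%. Between caudate and cerebellum (59709 regions) it was 27.4, 6.93 and 6.23 points, with gaps at 46.6%, 1.04% and 0.42%. With all 4 libraries, only the orofacial and wing pair among these 4 pairs had a smaller SD by area than crossed. Without wM1 of bat 1, its area SD was 1.031 times its crossed SD. No library was left out for the other pairs, and these differences between pairs were not tested.

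The carry-over from bat to bat followed the same order. It comes from the same libraries as these SDs, so it is not separate support. Of the regions chosen in 1 bat for a difference of at least 20 points, 57.8 to 63.7% had the same direction in the other bat between 2A and PreM, 75.6 to 84.5% between caudate and putamen, and 96.9 to 97.4% between caudate and cerebellum. For ofM1 and wM1 the range was 44.6 to 49.3%. The correlation of the tissue difference between the bats was 0.144, 0.505 and 0.902 for these 3 pairs, against -0.0544 for the motor pair. Its sign follows from whether the area SD was above or below the crossed SD.

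**Figure D5:**
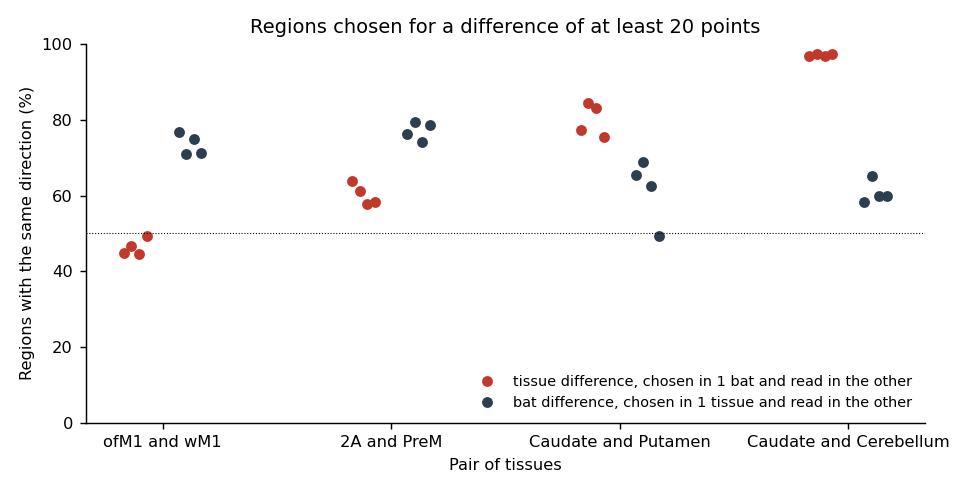
Percentage of regions with the same direction (y axis) when a difference of at least 20 points in strength rank was chosen in 1 bat and read in the other (red), or chosen in 1 tissue and read in the other tissue (dark), for 4 pairs of tissues (x axis). Each point is 1 choice, of 4 per colour and pair. The motor pair lies at 44.6 to 49.3% for the tissue difference and 71.0 to 76.8% for the bat difference.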

How the data were processed

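The authors deposited for each ATAC-seq library a peak list (narrowPeak), with each peak's fold enrichment (a ratio over background) and -log10 p. Bowtie2 and MACS2 are in the submitters' processing notes, without roles, and the sources used here do not give the genome build. All 4 motor lists reached 300000 rows. Rows with the same interval were merged, keeping the highest fold and -log10 p. A region takes a library's strongest peak. Percentile ranks over the shared regions were tested with limma 3.58.1 (R 4.3.3; trended spread, 2-sided, Benjamini-Hochberg adjustment over all shared regions, threshold 0.05), without a block. Equal numbers mark the same bat, so the bats pair the libraries, and the fit with a replicate block was an alternative. The fit was tested on simulated ranks. The other alternatives were fold or covered bases ranked, ranks over whole lists, normal scores, stricter overlap, the 50000 strongest peaks, no trend, other gaps and each library left out. Named regions are the 5 largest gaps per direction. The rule also named genes near regions and gene lists, and these were not analysed, for want of an annotation with scaffolds. The regions and tests were chosen with earlier results of these data known. RNA-seq was not used. With 2 bats, p-values measure the spread between 4 libraries.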

Additional observations from a re-analysis of the deposited data

How the results depend on the processing

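The limma count of regions by area was 0 for strength under every alternative run, and for width it was 161 with the replicate block and 0 to 3 with a library left out, where the lone library is assumed to vary like the others. By bat, the strength count of 1001 became 2324 with ranks over whole lists, 5043 with normal scores, 6256 with the replicate block, and 0 with fold ranked or without the trend, and 86 to 2781 with a library left out (86 without wM1 of bat 1). By bat, the width count of 0 became 1651 with the replicate block and 975 to 2837 with a library left out. The crossed width count of 0 became 8 to 1969 with a library left out, and the crossed strength count stayed at 0. The replicate block changed no other count. Each count above 0 given here is out of 119136 regions. The cause of these changes was not tested.

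With a gap of at least 5 points in place of 10, gaps in strength were found at 7.93% of regions by area, 25.2% by bat and 9.66% crossed, and those in width at 12.8%, 21.9% and 13.5%. With 20 points they were 0.3%, 4.1% and 0.395% for strength, and 1.24%, 4.54% and 1.95% for width. Among regions overlapping by at least 50%, width had gaps at 2.35%, 5.32% and 2.84%. With a library left out, where a gap needs 3 libraries only, strength had gaps at 14.6 to 17.3%, 25.7 to 28.3% and 15.7 to 18.3%, and width at 18.4 to 30.2%, 23.6 to 37.2% and 18.5 to 31.3%. The area share was above the crossed one without wM1 of bat 1 for strength, and without either ofM1 library for width. The SD of the area difference over that of the crossed difference was 0.947 for strength and 0.922 for width. It stayed below 1 with all 4 libraries under the alternatives run, and with a library left out it was 0.929 to 1.031 for strength (1.031 without wM1 of bat 1) and 0.819 to 1.142 for width (1.018 without ofM1 of bat 1 and 1.142 without ofM1 of bat 3). The 10 named regions kept their direction under every alternative that held them. Most of these alternatives could not turn it, as the regions were chosen for ranks that do not overlap between the areas. This holds for leaving out a library, the block, the trend and normal scores. Depth is unknown, so weak regions cannot be given a counting error.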
